A study of Ostreococcus tauri with 84 samples.

Results

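Constant light reached the cultures described here at hours that had been night under the preceding short-day regime. The 6 libraries in question came from Ostreococcus tauri strain RCC4221, a unicellular green alga, kept under constant light after short day (LL after SD) and sampled at ZT12, ZT16 and ZT20, the hours after dawn of the earlier cycle (libraries numbered 4 and 5 at each time). They were chosen by regime and time from the labels of the 84 samples of the series. They were compared with 9 libraries of the same strain under short day (SD), taken at the same 3 times in darkness (numbers 1, 2 and 3). For background, LL after SD and SD at ZT4 (5 libraries) and, at ZT20, LL after long day (2 libraries) and long day (LD, 3 libraries) were also used.

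The study's methods describe bubble-column photochemostats in which the light rose and fell over each photoperiod as in a solar day, and was held at its daily maximum in LL. Numbers 1 to 3 were consecutive days of a culture, and the LL libraries came from later days of cultures moved to LL, whose first day was not sampled. LL after SD and the later day of culture cannot be told apart in this design, and the numbers are not stated to be separate cultures, so p-values measure the spread between these samples. Medium was fed during the light period, and how it was fed in LL is not given in the sources used here.

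In plants and green algae, the nuclear genes for light-harvesting proteins, photosystem subunits and chlorophyll synthesis are controlled by light and by the circadian clock. The clock of Ostreococcus turns on a loop between CCA1, which binds DNA through a MYB domain, and TOC1, a pseudo-response regulator. Cell division is gated to a part of the day: replication genes are used in S phase, and mitotic kinases and cyclins just before division.

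Expression was read as FPKM (reads set against the length of the transcript and the mapped reads of the library). The mapped reads behind each library, estimated from the step size of low FPKM values, were 6560000 to 10600000 in LL after SD and 7430000 to 10100000 in SD. The LL library of ZT16, number 4, had 225 of 7668 genes listed at 0, against 97 to 133 in the other LL libraries and 42 to 88 in SD. No pair of libraries was identical. SD numbers 1 and 2 were the most alike, and still had squared differences with a median of 5.56 to 11.5 times those from sampling alone, against 12.4 to 34.8 times for the other pairs of 1 regime and time. Over the 6833 genes with a mean of at least 10 FPKM, SD libraries of the same time correlated at 0.935 to 0.988, and SD libraries of ZT12 and ZT20 at 0.819 to 0.853, as a description across genes.

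Night hours differed little from each other in LL after SD. Its libraries of ZT12 and ZT20 correlated at 0.931 to 0.977 across the same genes, and 5 of its 6 libraries were nearest to the SD libraries of ZT8, the hour when the SD light went off, while the ZT20 library of number 4 was nearest to SD at ZT16. The range of a gene's mean level over the 3 times had a median of 0.28 in LL after SD (means of 2 libraries) and 0.52 in SD (means of 3 libraries), both as log2 differences. Levels ranged by at least 2-fold in 125 genes (1.83%) in LL after SD and in 1455 genes (21.3%) in SD.

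The main comparison asked which genes differed between LL after SD and SD over the 3 times together, and 1804 of 7668 genes did (23.5%; limma, adjusted p under 0.05). Of these, 803 were higher in LL after SD (10.5% of all genes) and 1001 were lower (13.1%), and 266 of the higher and 192 of the lower genes differed at least 2-fold. The libraries did not overlap at any of the 3 times, in 1 direction throughout, for 771 genes (10.1%), of which 352 were higher (4.59%) and 419 lower (5.46%). Here and below a log2 difference is LL after SD minus SD on log2(FPKM + 1), which understates changes of low genes, and its error is the standard error of the fit. Leaving out all LL libraries of number 5 gave 968 calls, leaving out SD number 1 gave 1056 and SD number 2 gave 1145. Without the ZT16 libraries 719 genes were called.

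Among clock and light-sensing genes, TOC1 (ostta13g01820) was the member that was higher throughout. Its level was 1005 and 468 FPKM in LL after SD against 31.9, 25.8 and 70.5 FPKM in SD at ZT12, 803 and 416 FPKM against 13.9, 12.6 and 42.1 FPKM at ZT16, and 496 and 370 FPKM against 14.9, 14.6 and 74.8 FPKM at ZT20. Every LL library lay above every SD library at each time, which the choice of the largest rises required. LL number 4 was higher than LL number 5 at all 3 times. The log2 difference over the night was 4.31 ± 0.40 (adjusted p = 1.29e-05), and it was called at each of the 3 times (4.11, 4.81 and 4.01), with a loss at ZT12 without LL number 4 (3.56, adjusted p = 0.06). At ZT4, when both regimes were lit, TOC1 stood at 496 and 533 FPKM in LL after SD and at 658, 695 and 752 FPKM in SD, a difference of -0.45 that was not called (adjusted p = 0.544).

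CCA1 (ostta06g02340) differed by time instead. In LL after SD it stood at 772 and 355 FPKM at ZT12, 678 and 332 FPKM at ZT16 and 321 and 270 FPKM at ZT20. In SD it stood at 827, 1053 and 1205 FPKM at ZT12, 615, 663 and 247 FPKM at ZT16 and 52.4, 51.5 and 42.4 FPKM at ZT20. The groups separated upward at ZT20 only: the log2 difference was 2.58 there (adjusted p = 0.00132), against -0.96 at ZT12 and 0.03 at ZT16, neither of which passed. The change of the difference over the 3 times was itself called (F test, adjusted p = 0.00422). Its mean level over the night times ranged by 0.83 on the log2 scale in LL after SD and by 4.36 in SD.

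HK (ostta09g02190), a histidine kinase of the same list, went the other way. It had 28.5 and 27.3 FPKM in LL after SD against 108, 98.6 and 151 FPKM in SD at ZT16, and 36.7 and 22.5 FPKM against 145, 172 and 165 FPKM at ZT20, while at ZT12 the libraries overlapped. HK fell by 2.03 at ZT16 (adjusted p = 0.000355) and by 2.44 at ZT20 (adjusted p = 7.41e-05). Of the 8 clock and photoreceptor genes, TOC1 was higher and HK lower over the night, and the 6 others, CCA1 and the cryptochromes CRY1 and CRY3 among them, did not pass. Without the ZT16 libraries HK was lost over the night (-1.39, adjusted p = 0.057). A further signaling gene, ostta08g04240, is annotated as a histidine phosphotransfer domain protein. It had 539 to 1729 FPKM in LL after SD (median 984) against 16.9 to 443 FPKM in SD (median 60.7), a log2 difference of 3.61 ± 0.63 (adjusted p = 0.00106).

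**Figure D1:**
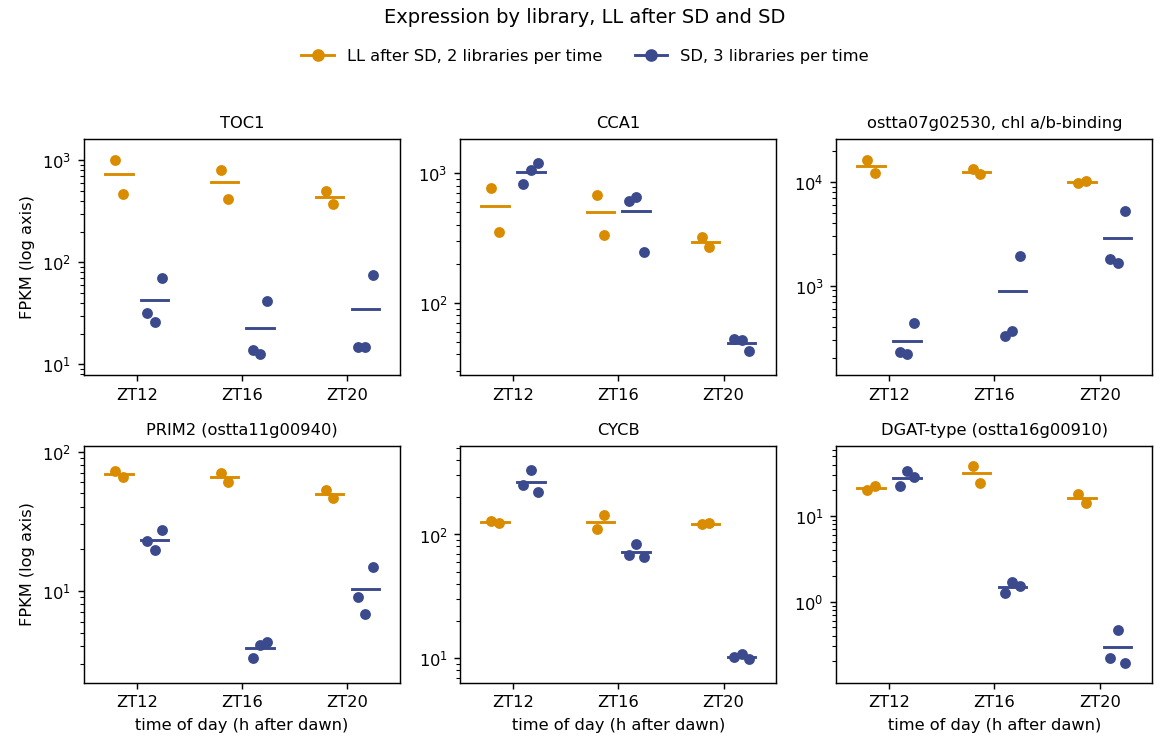
FPKM (log axis) of 6 genes at ZT12, ZT16 and ZT20, with 1 point per library and a line at the mean, in LL after SD (left of each pair) and SD. TOC1 lies between 370 and 1005 FPKM in LL after SD and between 12.6 and 74.8 FPKM in SD, and CYCB stays between 110 and 143 FPKM in LL after SD while the SD libraries lie below 11 FPKM at ZT20.

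The light-harvesting genes had the largest median log2 difference of all lists over the night, at 1.79. Chlorophyll a/b-binding proteins hold the antenna pigments around the photosystems; 14 of their 24 genes were higher over the night and none was lower, against 10.5% and 13.1% of all genes. Their summed FPKM was 7.25 to 10.9% of the table's total in the LL after SD libraries and 0.85 to 4.62% in the SD libraries. By time, 14 were higher at ZT12, 14 at ZT16 and 4 at ZT20, against 5.76%, 9.39% and 14.8% of all genes. The count at ZT20 was thus near the share of all genes. The median log2 difference was 2.88, 1.75 and 0.89, against -0.23, 0.02 and 0.13 for all genes. The ZT20 count was 0 without any 1 of SD numbers 1 and 2 and LL numbers 4 and 5, and 15 without SD number 3. Over all 3 times, 13 of the 24 genes did not overlap at any of the 3 times, all higher, against 4.59% of all genes.

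The antenna gene with the largest difference was ostta07g02530. It had 16191 and 12101 FPKM in LL after SD against 227, 219 and 436 FPKM in SD at ZT12, 13255 and 11901 FPKM against 325, 364 and 1940 FPKM at ZT16, and 9713 and 10173 FPKM against 1802, 1641 and 5183 FPKM at ZT20. The groups did not overlap, which the choice of the largest rises required. The gap was narrowest at ZT20, and SD number 3 stood highest of the SD libraries at all 3 times. The log2 difference was 4.00 ± 0.55 over the night (adjusted p = 0.000184), 5.64 at ZT12 (adjusted p = 0.000215) and 2.00 at ZT20 (adjusted p = 0.0525).

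ostta03g04550 and ostta03g04540, with neighboring identifiers and alike values in every library, followed with 3.69 ± 0.53 and 3.57 ± 0.51; how reads were split between such copies could not be checked here. ostta14g00065 (3.55 ± 0.64), ostta05g03830 (3.51 ± 0.58), ostta01g04940 (3.34 ± 0.45) and ostta16g00450 (3.21 ± 0.53) were also called over the night, the least of them with adjusted p = 0.00127. For ostta14g00065 the SD libraries stood at 20.9, 26.6 and 40.5 FPKM at ZT12 and at 723, 643 and 1170 FPKM at ZT20, whereas LL after SD had 2392 and 2298 FPKM at ZT12 and 1645 and 1719 FPKM at ZT20. Its difference changed over the 3 times (F test, adjusted p = 0.000821): 6.32 at ZT12, 3.28 at ZT16 and 1.04 at ZT20, the last not called (adjusted p = 0.153). Each of the 7 genes kept its call over the night under all 20 alternative settings.

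Photosystem I and electron transport showed the same direction, with 8 of 16 genes higher and none lower over the night, against 10.5% and 13.1% of all genes. PsaF (ostta04g01790), a subunit on the plastocyanin side of photosystem I, had 2374 to 3426 FPKM in LL after SD (median 2911) and 357 to 1828 FPKM in SD (median 772), a log2 difference of 1.86 ± 0.28 (adjusted p = 0.000376). ostta15g02670, annotated as PsaD, on the ferredoxin side, differed by 1.91 ± 0.32 (adjusted p = 0.000834). The rise was in photosystem I subunits: PetC, the Rieske protein of cytochrome b6f, ferredoxin (Fd), FNR, which passes its electrons to NADP+, and ATPD of the chloroplast ATP synthase did not pass, with differences of 0.33, -0.10, 0.12 and 0.06.

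In photosystem II, 8 of 29 genes were higher and 5 lower over the night, the lower share being near the 13.1% of all genes. The 3 named proteins of the oxygen-evolving complex were all higher. PsbO (ostta14g00150), which stabilizes the manganese cluster, had 3154 and 2969 FPKM in LL after SD against 524, 500 and 500 FPKM in SD at ZT12, and 2312 and 2463 FPKM against 1586, 1560 and 2002 FPKM at ZT20. Its log2 difference over the night was 1.52 ± 0.26 (adjusted p = 0.00082), and those of PsbP and PsbQ were 1.78 ± 0.30 (adjusted p = 0.000864) and 1.95 ± 0.25 (adjusted p = 0.000134). The 5 lower genes carry the PsbP-like domain annotation, as do genes of the list that were not called, and differed by -1.76 to -0.40; without LL number 5 there were 3 of them.

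Chlorophyll and heme synthesis stood out at ZT12 more than over the whole night. At ZT12, 13 of its 18 genes were higher and none lower, against 5.76% and 14.7% of all genes. At ZT20 none was higher and 4 were lower, against 14.8% and 6.85% of all genes. Those 4 became 2 without SD number 1 and 1 without SD number 2, LL number 4 or LL number 5. Porphobilinogen deaminase (ostta05g01230), an early enzyme of the pathway, had 859 and 666 FPKM in LL after SD against 27.3, 37.7 and 60.5 FPKM in SD at ZT12, and 460 and 451 FPKM against 548, 500 and 767 FPKM at ZT20. Its difference was 4.22 ± 0.44 at ZT12 (adjusted p = 8.09e-05) and -0.38 at ZT20 (adjusted p = 0.564), and the change was called (F test, adjusted p = 0.000897).

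Glutamyl-tRNA reductase (ostta11g00690), which opens the route to tetrapyrroles, had 1335 and 633 FPKM in LL after SD and 82.2, 85.8 and 173 FPKM in SD at ZT12, a difference of 3.09 ± 0.42 (adjusted p = 0.000506). At ZT20 it had 443 and 368 FPKM in LL after SD and 595, 581 and 829 FPKM in SD (-0.71, adjusted p = 0.254). For both enzymes, then, the groups were separated upward at ZT12, and the SD libraries were the higher ones at ZT20 without passing the test. Over the night 4 of the 18 genes were called higher and none lower, against 10.5% and 13.1% of all genes. The 4 became 0 without SD number 1, 1 without SD number 2 or LL number 5, and 8 without the ZT20 libraries.

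Carotenoid genes were mixed, with 4 of 16 higher and 2 lower over the night, against 10.5% and 13.1% of all genes; none was higher without SD number 1 or LL number 4, 1 without SD number 2 and 2 without LL number 5. ostta01g04480, annotated as a carotenoid oxygenase, had 635 and 363 FPKM in LL after SD against 14.7, 12.9 and 33 FPKM in SD at ZT12 (4.63 ± 0.56, adjusted p = 0.000215), and 220 and 216 FPKM against 216, 214 and 351 FPKM at ZT20. ZEP (ostta16g00670), the zeaxanthin epoxidase of the xanthophyll cycle, was 2.36 ± 0.39 higher at ZT12 (adjusted p = 0.00159), which without LL number 4 became 1.89 (adjusted p = 0.052). LCY (ostta14g00700), which closes the rings of lycopene, was lower in all LL libraries: 54.8 to 57.8 FPKM in LL after SD (median 55.8) and 70.9 to 122 FPKM in SD (median 91.4). LCY fell by 0.67 ± 0.10 (adjusted p = 0.000251).

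Carbon fixation genes parted from the light-harvesting genes at ZT16 and ZT20, but not at ZT12. Of 23 Calvin cycle genes, 5 were higher and 1 lower at ZT12, whereas 7 were lower and none higher at ZT16 and at ZT20. Of all genes, 5.76% were higher and 14.7% lower at ZT12, and 6.98% and 6.85% were lower at ZT16 and ZT20. RCA (ostta04g02510), the activase of Rubisco, had 603 and 693 FPKM in LL after SD against 1542, 1643 and 1519 FPKM in SD at ZT20 and fell by 1.28 there (adjusted p = 0.000358). At ZT12 it had 480 and 550 FPKM in LL after SD and 445, 345 and 455 FPKM in SD, 0.32 apart (adjusted p = 0.227), so RCA stood between 462 and 693 FPKM in LL throughout while the SD libraries were low at ZT12 only. Over the night 1 gene was called higher and 7 lower, against 10.5% and 13.1% of all genes. These counts were thin: the 5 rises at ZT12 became 1 or 2 without SD number 1, SD number 2, LL number 4 or LL number 5, the 7 falls at ZT16 became 0 to 3 without any of the same numbers, and the 7 at ZT20 became 3 or 4 without SD number 1, SD number 2 or LL number 4. Over the night 2 or 3 falls were left without any of those 4.

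Starch genes moved in both directions, among those of starch making and among those of breakdown. GBSS (ostta06g02940), the granule-bound starch synthase, had 951 and 577 FPKM in LL after SD against 98.9, 78.7 and 26 FPKM in SD at ZT12, a difference of 3.63 ± 0.50 (adjusted p = 0.000519). At ZT20 it had 549 and 478 FPKM in LL after SD and 861, 921 and 460 FPKM in SD, which overlap. BAM (ostta03g03180), a beta-amylase, which breaks starch down, had 121 to 154 FPKM in LL after SD (median 126) and 182 to 291 FPKM in SD (median 231). BAM fell by 0.86 ± 0.09 (adjusted p = 3.63e-05). Over the night 2 of the 10 starch genes were higher and BAM alone lower, against 10.5% and 13.1% of all genes, and GBSS was not called. Of other breakdown genes, the amylase AMY had a median of 87.6 FPKM in LL after SD against 57.6 FPKM in SD, and ISA 18.7 against 20.0 FPKM. Of the ADP-glucose pyrophosphorylase subunits, which serve starch making, APS had 271 against 520 FPKM and APL 252 against 108 FPKM. The medians of PUL (ostta01g03050) were 23.0 against 13.8 FPKM, those of SBE 344 against 368 FPKM and those of SSS 46.9 against 39.5 FPKM.

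Replication genes formed a second group of rises. Of 38 genes of S phase, 23 were higher and 4 lower over the night, against 10.5% and 13.1% of all genes. By time 15, 24 and 17 were higher at ZT12, ZT16 and ZT20, against 5.76%, 9.39% and 14.8% of all genes. The ZT12 count was 7, 9 and 6 without SD number 1, SD number 2 and LL number 4, and the ZT20 count was 11 without SD number 1 or 2. MCM6 (ostta01g02580), of the helicase that opens DNA at origins, had 83.5 and 61.1 FPKM in LL after SD against 20.3, 18.9 and 18.7 FPKM in SD at ZT12, 59.5 and 55.7 FPKM against 7.56, 6.31 and 4.99 FPKM at ZT16, and 50.2 and 44.2 FPKM against 12.4, 12.5 and 13.5 FPKM at ZT20. No LL library came near the SD libraries at any time, and the log2 difference was 2.22 ± 0.18 (adjusted p = 6.75e-06).

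POLA (ostta08g00710), the polymerase that starts new strands, was 2.42 ± 0.24 higher (adjusted p = 1.85e-05), and its primase partners PRIM2 (ostta11g00940) and PRIM1 (ostta13g02040) were 2.51 ± 0.29 (adjusted p = 4.69e-05) and 2.06 ± 0.24 higher (adjusted p = 5.54e-05). PCNA (ostta06g02890), the sliding clamp, had 411 to 580 FPKM in LL after SD (median 498) and 45.7 to 291 FPKM in SD (median 141), 1.80 ± 0.25 apart (adjusted p = 0.000184). The largest gaps of all 5 were at ZT16.

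The 4 lower genes of the list, no larger a share than the 13.1% of all genes, lie on chromosome 2. Of all genes on that chromosome 29.2% were called lower, and of the 265 that come first in order 46.4%. MCM3 (ostta02g00690), of the same helicase as MCM6, had 112 to 191 FPKM in LL after SD (median 133) and 194.2 to 352 FPKM in SD (median 225) and fell by 0.86 ± 0.16 (adjusted p = 0.00138); without LL number 5 the call was lost (-0.63, adjusted p = 0.051). RFC1 and RFC3 of the clamp loader and PSF2 of the GINS complex, which joins the helicase at the fork, fell by 0.77, 0.69 and 0.45, and each of these calls was also lost without LL number 5 (adjusted p = 0.1, 0.19 and 0.12). That of RFC3 was lost without SD number 2 as well (-0.56, adjusted p = 0.071).

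The mitotic genes CYCB, CDKB and CKS were nearly constant over the night times in LL after SD and varied in SD. CYCB (ostta01g06150), the B-type cyclin of entry into mitosis, had 129 and 122.8 FPKM in LL after SD at ZT12, 110 and 143 FPKM at ZT16 and 121 and 124 FPKM at ZT20. In SD it had 250, 333 and 219 FPKM at ZT12, 67.9, 84 and 65.9 FPKM at ZT16 and 10.2, 10.8 and 9.84 FPKM at ZT20. LL after SD was therefore the lower group at ZT12 (-1.05 ± 0.18, adjusted p = 0.00215) and the higher at ZT20 (3.45, adjusted p = 2.32e-07), and the F test had adjusted p = 3.49e-06.

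CDKB (ostta15g00670), the mitotic kinase of plants and green algae, had 191 and 184 FPKM in LL after SD against 4.67, 4.29 and 9.01 FPKM in SD at ZT20 (4.81, adjusted p = 6.39e-07), and 188 and 244 FPKM against 263, 396 and 250 FPKM at ZT12 (-0.47, adjusted p = 0.287). CKS (ostta07g01870), the small subunit of cyclin-dependent kinases, differed by 4.79 at ZT20 (adjusted p = 6.95e-06) and by -0.48 at ZT12 (adjusted p = 0.429). Mean levels over the 3 times ranged by 0.04, 0.19 and 0.22 on the log2 scale for CYCB, CDKB and CKS in LL after SD, and by 4.55, 5.47 and 5.34 in SD.

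APC8 and FTSZ1 were among the other division genes that stood above SD at all 3 times with no overlap. Of the 16 genes of G2 and M, 6 did so, against 4.59% of all genes. APC8 (ostta07g02520), of the anaphase-promoting complex that marks cyclins for degradation, had 20.7 to 44.5 FPKM in LL after SD (median 26.1) and 6.74 to 14.9 FPKM in SD (median 8.62), 1.42 ± 0.17 apart (adjusted p = 7.5e-05). FTSZ1 (ostta08g02230), which forms the ring that divides the chloroplast, was 1.21 ± 0.15 higher (adjusted p = 6.8e-05). The FtsZ gene that the study followed, ostta07g01610, went the other way. It had 412 to 483 FPKM in LL after SD (median 455) and 443 to 692 FPKM in SD (median 579). In all, 9 of 16 genes of G2 and M were higher over the night and 2 lower, against 10.5% and 13.1% of all genes. In G1, 4 of 11 genes were higher and 1 lower, against 1 higher without SD number 1 or 2 and 0 without LL number 4. Dp (ostta10g01190), the partner of E2F, had 69.2 and 47.3 FPKM in LL after SD against 15, 12.5 and 15.1 FPKM in SD at ZT12 (1.95 ± 0.22, adjusted p = 0.000151), and 49.8 and 55.9 FPKM against 79.3, 75.7 and 102 FPKM at ZT20.

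Most core histone genes, whose products package new DNA, were higher in LL after SD late in the night. The summed FPKM was 0.445 to 0.660% of the total in LL after SD against 0.854 to 0.957% in SD at ZT12, and 0.491 to 0.648% against 0.437 to 0.509% at ZT20, where the ranges overlapped. Of 13 genes, none was higher and 1 lower at ZT12, and 8 were higher and 1 lower at ZT16. At ZT20, 12 were higher and 1 lower. Of all genes, 5.76%, 9.39% and 14.8% were higher and 14.7%, 6.98% and 6.85% lower at those times. ostta02g00100 had 2464 and 4065 FPKM in LL after SD against 3560, 3164 and 3463 FPKM in SD at ZT12, and 2812 and 3906 FPKM against 783, 779 and 599 FPKM at ZT20. Its difference was -0.10 at ZT12 (adjusted p = 0.821) and 2.21 at ZT20 (adjusted p = 0.000107).

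The histone lower at all times was ostta08g00200, with 1019 to 1412 FPKM in LL after SD (median 1175) and 2812 to 3844 FPKM in SD (median 3404). It fell by 1.5 ± 0.12 (adjusted p = 5.81e-06) and did not overlap at any time. Over the night 6 histones were higher and 1 lower, against 10.5% and 13.1% of all genes. The 6 became 3 without SD number 1 and 2 without LL number 5. The 8 higher calls at ZT16 became 3 without SD number 1 and 5 without SD number 2, whereas at ZT20 between 9 and 12 were higher under all 10 alternative settings.

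Genes of ribosome assembly turned round between ZT12 and ZT20. Of 25 genes, 15 were lower and none higher at ZT12, and 16 were higher and 1 lower at ZT20, against 14.7% of all genes lower at ZT12 and 14.8% higher at ZT20, with median log2 differences of -0.81, -0.20 and 1.10 at the 3 times. BRX1 (ostta03g02650), which acts on the large subunit in yeast, had 71.8 and 73.5 FPKM in LL after SD against 148, 130 and 154 FPKM in SD at ZT12 (-0.97 ± 0.19, adjusted p = 0.00442), and 105 and 69.1 FPKM against 10.7, 13.4 and 9.81 FPKM at ZT20 (2.82, adjusted p = 1.1e-06). The F test of BRX1 had adjusted p = 1.5e-05. The 15 lower calls at ZT12 were 8 after upper-quartile scaling, 5 without SD number 1, 7 without SD number 2 and 4 without LL number 4, and the 16 higher calls at ZT20 were 9 without LL number 4.

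The member of this list that lay below SD at all 3 times was ostta02g00960, named for the U3-associated protein 6 of the small-subunit processome, with 235 to 335 FPKM in LL after SD (median 265) and 393 to 688 FPKM in SD (median 552). It fell by 0.95 ± 0.12 over the night (limma, adjusted p = 0.000128). Its identifier places it on chromosome 2, where 29.2% of genes were called lower over the night. Ribosomal proteins themselves were higher at ZT20 in 62 of 96 genes and lower in none, against 14.8% of all genes higher, a count of 33 without SD number 1, 24 without SD number 2, 27 without LL number 4 and 19 without LL number 5. Their summed FPKM was 7.52 to 8.14% of the total in LL after SD against 4.38 to 4.8% in SD at ZT20, and 6.76 to 7.75% against 7.09 to 7.99% at ZT12, where the ranges overlap. L19 (ostta20g00570) had 817 and 879 FPKM in LL after SD against 169, 169 and 317 FPKM in SD at ZT20, 2.02 apart (adjusted p = 0.0019).

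**Figure D2:**
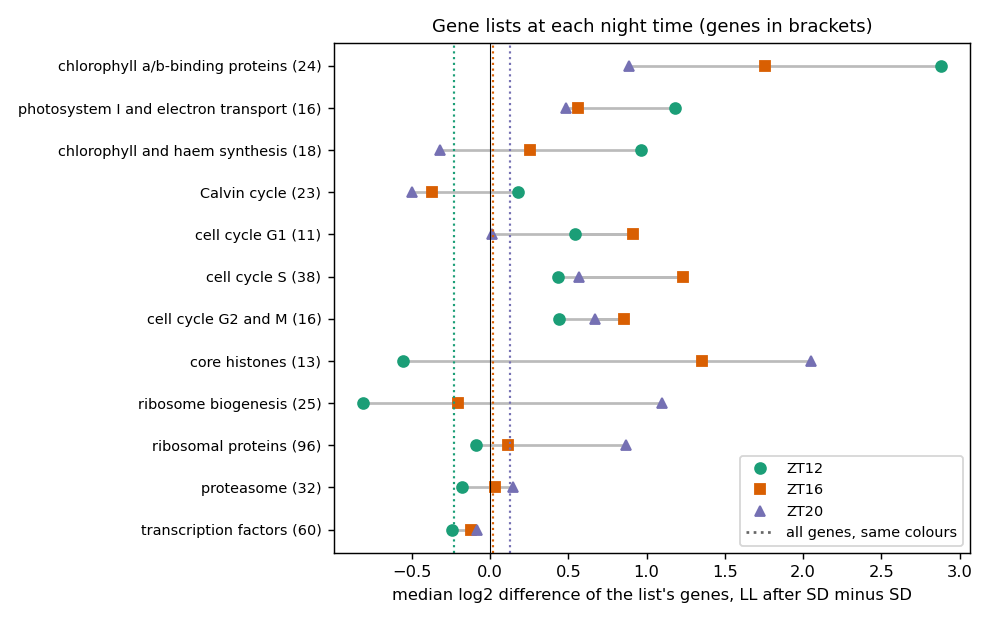
Median log2 difference (LL after SD minus SD) of 12 gene lists at ZT12, ZT16 and ZT20, with the number of genes in brackets and the medians of all genes as dotted lines. Chlorophyll a/b-binding genes run from 2.88 at ZT12 to 0.89 at ZT20, and ribosome biogenesis genes run the other way, from -0.81 to 1.10.

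Transcription factors moved in both directions, with 11 of 60 higher and 17 lower over the night (5 and 8 without the ZT16 libraries), against 10.5% and 13.1% of all genes. ostta08g01730, with a Dof-type zinc finger, had 40.1 and 25.8 FPKM in LL after SD against 171, 181 and 555 FPKM in SD at ZT12, and 44.6 and 27.1 FPKM against 628, 545 and 606 FPKM at ZT16. It fell by 3.07 ± 0.33 (adjusted p = 3.35e-05). ostta08g02550, with a B-box zinc finger, a domain found in light-signaling factors of plants, had 571 to 928 FPKM in LL after SD (median 728) and 2424 to 8208 FPKM in SD (median 4822).

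The B-box gene fell by 2.71 ± 0.22 (limma, adjusted p = 5.81e-06). Its libraries were apart at every time, which the choice of the largest falls required. On the higher side, the GATA-type ostta07g00720 had 267 to 502 FPKM in LL after SD (median 365) and 63.7 to 215 FPKM in SD (median 81.4), 1.81 ± 0.26 apart (adjusted p = 0.000251). A SANT/Myb gene, ostta09g00450, had 55.4 to 105 FPKM in LL after SD (median 90.7) and 14.1 to 47.6 FPKM in SD (median 20.9), 1.72 ± 0.18 apart (adjusted p = 2.81e-05).

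The largest falls were in genes outside these pathways. ostta09g01150, with an SNF2-related domain of chromatin remodelers, had 7.6 and 3.58 FPKM in LL after SD against 524, 459 and 1690 FPKM in SD at ZT12, 4.44 and 6.75 FPKM against 398, 387 and 242 FPKM at ZT16, and 7.89 and 2.91 FPKM against 29.9, 29 and 25.7 FPKM at ZT20. The gene was low in all LL libraries, and its SD level was itself lowest at ZT20. It fell by 4.96 ± 0.59 over the night (adjusted p = 5.82e-05); at ZT20 the difference was -2.31 (adjusted p = 0.00727) and without LL number 5 it was -1.71 (adjusted p = 0.12).

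ostta16g00440, of glycosyl hydrolase family 13, which holds amylases and related enzymes, had 8.42 to 32.5 FPKM in LL after SD (median 24.4) and 93.2 to 494 FPKM in SD (median 247). It fell by 3.70 ± 0.39 (adjusted p = 2.81e-05), and another glycoside hydrolase, ostta04g02390, fell by 2.24 ± 0.29 (adjusted p = 0.000109). ostta05g01380, with an endonuclease III-like motif, fell by 3.15 ± 0.33 (adjusted p = 2.81e-05) and ostta11g00060, with a CBS domain, by 2.52 ± 0.24 (adjusted p = 1.71e-05). Falls of 1.75 to 1.79 were seen for a START-like, a saposin-like, an MIF4-like, a fumarate lyase and a DNA-binding domain gene (ostta14g02650, ostta11g03030, ostta05g02330, ostta18g01320 and ostta03g03730).

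**Figure D3:**
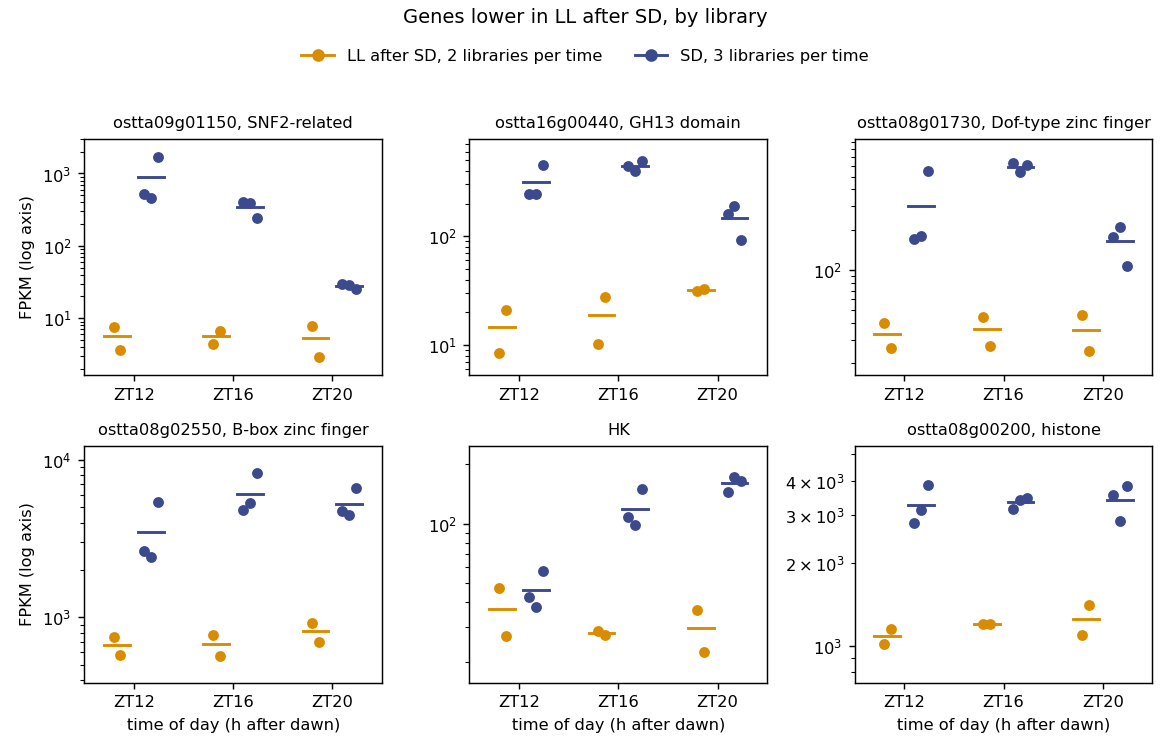
FPKM (log axis) of 6 genes lower in LL after SD (left of each pair) than in SD at ZT12, ZT16 and ZT20, with 1 point per library and a line at the mean. For ostta08g00200 all LL after SD libraries lie between 1019 and 1412 FPKM and all SD libraries between 2812 and 3844 FPKM, and HK overlaps at ZT12 but not at ZT16 or ZT20.

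Of the large rises outside the pathways above, ostta10g00190, with a RING-CH zinc finger, had 227 to 728 FPKM in LL after SD (median 270) and 14.6 to 218 FPKM in SD (median 25.5), 3.43 ± 0.47 apart (adjusted p = 0.000181). ostta09g00500, a heme peroxidase, an enzyme class that removes hydrogen peroxide, had 146 and 139 FPKM in LL after SD against 4.85, 4.89 and 3.05 FPKM in SD at ZT12, and 107.1 and 122 FPKM against 92.1, 77.2 and 81.3 FPKM at ZT20. Its gap closed late in the night: 4.79 ± 0.20 at ZT12 (adjusted p = 4.29e-08) and 0.45 at ZT20 (adjusted p = 0.115). ostta20g00620, a bestrophin, of a family of anion channels, was 2.93 ± 0.30 higher (adjusted p = 2.63e-05).

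A diacylglycerol acyltransferase, ostta16g00910, which makes storage oil from diacylglycerol, was level at ZT12 and apart later. It had 20.2 and 22.5 FPKM in LL after SD against 22.7, 33.4 and 28.7 FPKM in SD at ZT12, 38.8 and 24.6 FPKM against 1.27, 1.7 and 1.52 FPKM at ZT16, and 18.1 and 14.2 FPKM against 0.219, 0.468 and 0.191 FPKM at ZT20. The difference was -0.37 at ZT12 (adjusted p = 0.276), 3.68 at ZT16 (adjusted p = 5.72e-07) and 3.73 at ZT20 (adjusted p = 6.47e-07). A fatty acid desaturase, ostta04g03510, fell by 1.08 ± 0.20 over the night (adjusted p = 0.00158), with 832 to 1069 FPKM in LL after SD (median 922) and 1273 to 2820 FPKM in SD (median 2254).

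Taken time by time, 1570 genes were called at ZT12 (20.5%), with 442 higher (5.76%) and 1128 lower (14.7%). At ZT16 there were 1255 (16.4%), with 720 higher (9.39%) and 535 lower (6.98%), and at ZT20 there were 1658 (21.6%), with 1133 higher (14.8%) and 525 lower (6.85%). The balance of directions rested in part on scaling: after upper-quartile scaling of the libraries 49.3% of the called genes were higher at ZT12, against 28.2% on the deposited values, and 55.9% against 68.3% at ZT20. The same scaling put the median of all genes at -0.07 at ZT12 and 0.01 at ZT20, against -0.23 and 0.13 on the deposited values. At ZT12 there were 663 calls without SD number 1, 692 without SD number 2 and 447 without LL number 4. At ZT16 there were 599 and 624 without those SD numbers, 529 without LL number 4 and 799 without LL number 5, and at ZT20 there were 766, 790, 979 and 693 in the same order and 2651 without SD number 3.

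**Figure D4:**
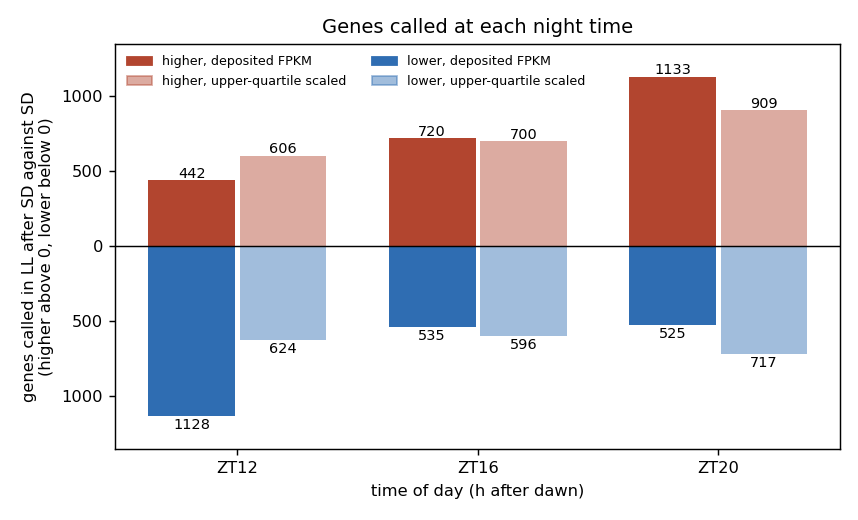
Genes called higher (above 0) and lower (below 0) in LL after SD against SD at ZT12, ZT16 and ZT20, for the deposited FPKM (dark) and after upper-quartile scaling (light). At ZT12 there are 442 higher and 1128 lower genes on deposited values and 606 and 624 after scaling.

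The F test called 1264 genes whose difference changed over ZT12, ZT16 and ZT20 (16.5%). Of all genes, 263 were lower at ZT12 and higher at ZT20, BRX1 and CYCB among them, and 34 were higher at ZT12 and lower at ZT20. In contrast 102 genes were higher and 122 lower at all 3 times; the first hold MCM6, POLA and PRIM2 (ostta11g00940), the second the B-box gene, the histone ostta08g00200 and the START-like ostta14g02650. The number of F-test calls was 360 without LL number 4, 516 without SD number 1, 580 without SD number 2, 824 without LL number 5 and 2001 without SD number 3.

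Light at ZT4, when SD was lit too, gives the background of the change of regime. There 3005 genes were called (39.2%), with 2700 higher (35.2%) and 305 lower (3.98%) in LL after SD, and 89.9% of the calls were higher, against 61.8% after upper-quartile scaling. Without LL number 4 there were 1703 calls and without LL number 5 there were 1295. The night difference itself differed from the ZT4 difference for 2639 genes (34.4%), 408 in the positive direction (5.32%) and 2231 in the negative (29.1%); after upper-quartile scaling there were 1753, of which 39.6% were positive, against 15.5%. Leaving out LL number 4 gave 1205 such genes and leaving out LL number 5 gave 1345.

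For 14 of the 24 chlorophyll a/b-binding genes the night difference exceeded that at ZT4, and for 2 it was below it, against 5.32% and 29.1% of all genes. For 19 of 25 ribosome biogenesis genes, 40 of 96 ribosomal protein genes and 5 of 13 histones it was below that at ZT4. ostta07g02530 had 15417 and 12117 FPKM in LL after SD against 24518, 24531 and 34969 FPKM in SD at ZT4, so the LL libraries were below SD by day (-1.01, adjusted p = 0.147) and above it by night. CYCD (ostta18g01570), the cyclin of G1, was lower at ZT4 (463 and 275 FPKM in LL after SD, 1373, 1432 and 1026 FPKM in SD) and higher at ZT16 (495 and 330 FPKM in LL after SD, 145, 127 and 133 FPKM in SD).

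At ZT4 itself, 71 of 96 ribosomal protein genes, 21 of 25 ribosome biogenesis genes and 10 of 13 histones were higher, against 35.2% of all genes. CYCB had 103 and 100.3 FPKM in LL after SD against 3.51, 2.04 and 0 FPKM in SD at ZT4, and its difference there, 5.43 (adjusted p = 4.99e-08), was larger than at any of the 3 night times. ostta16g00440 had 10.4 and 34.8 FPKM in LL after SD against 4.99, 5.19 and 3.28 FPKM in SD at ZT4. This family 13 hydrolase was thus lower in LL at the 3 night times and not at ZT4, the lit time compared (limma, adjusted p of the difference between night and ZT4 = 3.25e-07).

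At ZT20 the effect of LL could be set beside that after long day, since ZT20 is dark under LD as well. LL after LD against LD gave 1274 calls (16.6%), with 577 higher (7.52%) and 697 lower (9.09%). The higher calls after both photoperiods had 103 genes in common, which is 9.09% of those after SD and 17.9% of those after LD, and the lower calls had 100, which is 19% and 14.3%. The difference between photoperiods was itself called for 1100 genes (14.3%), with 748 positive (9.75%) and 352 negative (4.59%), and for 596 without LL after SD number 4, 685 without LL after SD number 5 and 618 without LL after LD number 4.

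The difference between photoperiods did not pass for TOC1: its ZT20 mean was 433 FPKM in LL after SD and 34.8 FPKM in SD, and 416 FPKM in LL after LD and 35 FPKM in LD, 0.43 apart in the log2 difference (adjusted p = 0.794). For CCA1 it did. CCA1 averaged 296 FPKM in LL after SD and 48.8 FPKM in SD, and 299 FPKM in LL after LD and 1050.1 FPKM in LD, so the differences were 2.58 and -1.83 (adjusted p of their difference = 0.000537). The 2 LL means of CCA1 lie close together, and those of SD and LD far apart.

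CDKB, BRX1 and RCA also differed between photoperiods at ZT20, with LL means nearer to each other than the SD and LD means. CDKB averaged 187 FPKM in LL after SD and 5.99 FPKM in SD, and 200.02 FPKM in LL after LD and 215 FPKM in LD (adjusted p = 0.000572). BRX1 averaged 87.3 FPKM in LL after SD and 11.3 FPKM in SD, and 102 FPKM in LL after LD and 220.5 FPKM in LD (adjusted p = 0.000572). RCA averaged 648 FPKM in LL after SD and 1568 FPKM in SD, and 717 FPKM in LL after LD and 187 FPKM in LD (adjusted p = 0.000733).

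Genes lower in LL after SD were unevenly spread over the chromosomes, a description with no test. Of the genes RefSeq places on chromosome 2, 29.2% of 531 were called lower, and of those on chromosome 19, 31.1% of 74 were lower and none was higher, against 11.6% lower of the 7056 genes on all other chromosomes together and a range of 9.18 to 15.6% over those chromosomes. Within chromosome 2 the 265 genes that come first in order had 46.4% lower and the 266 that follow 12%. Expression level differed too: the median gene had 175 FPKM in the first set and 43.4 FPKM in the second. It had 67.7 FPKM on chromosome 19 and 41.5 FPKM on the other chromosomes. Whether level entered the shares was not tested. These chromosomes are known in Ostreococcus for a base composition unlike the rest, which was not analysed here.

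For the leading 265 genes of chromosome 2 the median log2 difference was -0.42 over the night, -0.27 at ZT12, -0.53 at ZT16 and -0.46 at ZT20, and it was -0.28 at ZT4 and -0.52 at ZT20 after LD. For chromosome 19 the median was -0.33 over the night, -0.06 at ZT12, -0.48 at ZT16 and -0.59 at ZT20, and it was -0.42 at ZT4 and 0 at ZT20 after LD. For the other chromosomes together the median was 0.0008 over the night, -0.23 at ZT12, 0.03 at ZT16 and 0.15 at ZT20. It was 0.50 at ZT4 and -0.13 at ZT20 after LD. At ZT12, 14.7% of the leading chromosome 2 genes and 4.05% of the chromosome 19 genes were called lower, against 14.7% on the other chromosomes. Per library, set against the SD mean of its time, the median of the leading chromosome 2 genes was -0.60 to -0.13 in LL after SD and -0.10 to 0.17 in SD, so every LL library lay below every SD library. On the other chromosomes the same median was -0.34 to 0.19 in LL after SD and -0.07 to 0.08 in SD. In the ZT12 library of LL number 4 it was -0.34 there, below the -0.13 of the chromosome 2 genes. The share of 46.4% fell to 17.7% without LL number 5, 18.5% without the ZT16 libraries and 16.2% with 1 value per regime and number, against 7.20%, 5.27% and 4.61% on the other chromosomes. The share of chromosome 19 fell to 9.46%, 13.5% and 13.5% under the same 3 alternatives, to 18.9% without SD number 1 or 2 (6.46% and 7.03% on the others) and to 12.2% without the ZT20 libraries (12.5% on the others), and it was 52.7% without the ZT12 libraries (8.73% on the others).

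**Figure D5:**
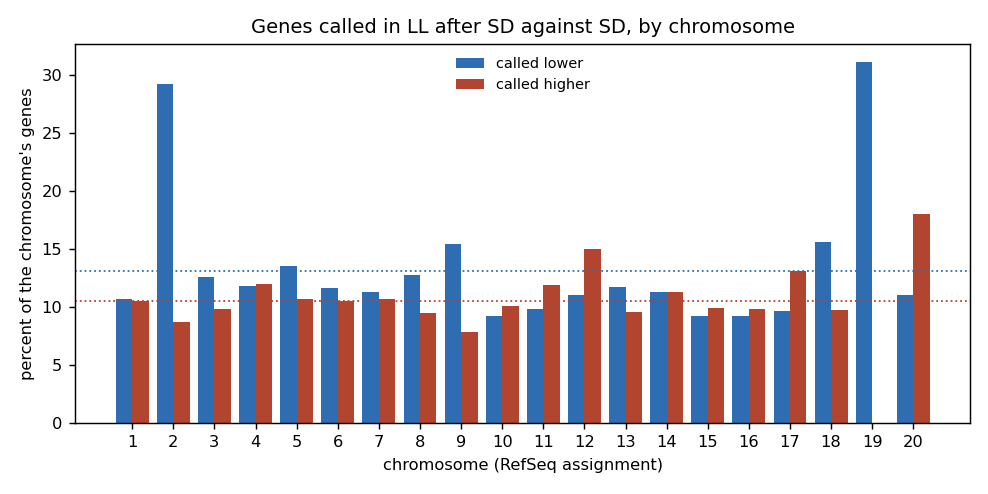
Percent of each chromosome's genes called lower (left bar) and higher (right bar) in LL after SD against SD over ZT12, ZT16 and ZT20, with all genes as dotted lines. Chromosomes 2 and 19 have 29.2% and 31.1% of genes lower, and the other chromosomes have 9.18 to 15.6%.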

How the data were processed

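The deposited table holds gene-level FPKM, made by the authors from 75-nt single-end reads with FastQC, HISAT2, StringTie and Ballgown on the O. tauri v3.0 genome; tool versions are not given in the sources used here. FPKM are relative to each library, so a change of all transcripts together is not seen. The deposited FPKM were used as log2(FPKM + 1), with no filter on low values, in limma 3.58.1 under R 4.3.3: regime with time as a factor (15 libraries), 1 contrast per time and an F test, night minus ZT4 (30 libraries) and photoperiods at ZT20 (10 libraries). P-values were adjusted by Benjamini and Hochberg over 7668 genes, with a threshold of 0.05. Mapped reads were estimated from the spacing of the 250 lowest values of each library, of which 70.7 to 81.5% lay within 0.1 of a step; counts were not rebuilt from them. RefSeq (7661 of 7668 IDs matched) gave chromosome, order and length. Fits were tested on simulated data.

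The lists (623 genes) and the gene names come from the study's own tables, and the members, lists and tests were chosen with earlier results of these data known. Named genes were the 12 largest rises and falls with a named function, a mean of at least 10 FPKM and no overlap at any time, genes with a symbol in the lists, and up to 4 members of each list. For those largest rises and falls, no overlap was thus a condition and not a result. Alternatives were other pseudocounts (0.1 and 5), a filter at 1 FPKM, upper-quartile and median-ratio scaling, other models, a replicate block, and leaving out each sample number or time. A second table, of libraries in constant darkness, was not used. Figures were drawn with matplotlib 3.10.9.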

Additional observations from a re-analysis of the deposited data

Results flagged for a closer look

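Several differences changed with time, light state or photoperiod by a test of the change itself. The difference between LL after SD and SD changed over ZT12, ZT16 and ZT20 for 1264 genes. It differed between the 3 night times and ZT4 for 2639 genes, and between photoperiods at ZT20 for 1100 genes. In the comparison of photoperiods below, the value is the log2 difference between LL after SD and SD minus that between LL after LD and LD. The SD and LD libraries of ZT20 were at unlike points of the night.

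For the 7 chlorophyll a/b-binding genes with the largest rises over the night, of 24, the value was negative: -3.59 for ostta07g02530, -3.29 for ostta03g04550, -3.10 for ostta03g04540, -5.32 for ostta14g00065, -4.68 for ostta05g03830, -3.89 for ostta01g04940 and -4.43 for ostta16g00450. ostta07g02530 averaged 9943 FPKM in LL after SD and 2875 FPKM in SD, and 5962 FPKM in LL after LD and 131 FPKM in LD. ostta14g00065 averaged 1682 FPKM in LL after SD and 846 FPKM in SD, and 939 FPKM in LL after LD and 11.3 FPKM in LD.

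The histidine phosphotransfer domain gene ostta08g04240 had a value of -3.996, and the heme peroxidase ostta09g00500 one of -3.30. The peroxidase averaged 114.8 FPKM in LL after SD and 83.5 FPKM in SD, and 54.1 FPKM in LL after LD and 3.25 FPKM in LD. The bestrophin ostta20g00620 had a value of 2.01, with 29.7 FPKM in LL after SD and 2.14 FPKM in SD, and 26.2 FPKM in LL after LD and 9.51 FPKM in LD.

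Of the lower genes, the SNF2-related ostta09g01150 had a value of 1.84, with 5.4 FPKM in LL after SD and 28.2 FPKM in SD, and 41.8 FPKM in LL after LD and 751 FPKM in LD. The B-box gene ostta08g02550 had a value of -1.81, with 815 FPKM in LL after SD and 5267 FPKM in SD, and 505 FPKM in LL after LD and 961 FPKM in LD. The MIF4-like ostta05g02330 had a value of -1.31.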

How the results depend on the processing

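Over ZT12, ZT16 and ZT20 together, 1804 genes were called; 873 were called with 1 value per regime and number (806 of them shared) and 719 without ZT16, and the other alternatives that kept every sample number moved the count by less than 1.5 times. At ZT16, leaving out the LL library of number 4, an alternative chosen after seeing the data, gave 616 calls. The night minus ZT4 count was 1753 after upper-quartile scaling. Leaving out each number in turn gave 968 to 2114 calls over the night, 447 to 2300 at ZT12, 529 to 1879 at ZT16, 693 to 2651 at ZT20, 360 to 2001 in the F test, 1205 to 3435 for night minus ZT4, 596 to 1162 between photoperiods and, added after seeing the data, 1295 to 3939 at ZT4; the cause was not tested. Without ZT20 the night difference reversed for CCA1 (-0.46), CYCB (-0.13), UTP12 (-0.34), ostta03g02650 (-0.52) and ostta17g01600 (-0.42), none of which was called over the night. Of 77 named genes, 65 were called over the night, and 44 of these kept the call under all 20 alternatives.

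No paired analysis was possible because LL after SD (numbers 4 and 5) and SD (1, 2 and 3) share no number. With the day of culture as a replicate block, 2058 genes were called in the F test and 1655 over the night, and no other count moved by more than 1.5 times. Libraries of 1 number deviated together in 6 of 6 pairs of times in LL after SD (correlations of 0.287 to 0.425) and in 6 of 9 in SD (-0.13 to 0.64). Promoter motifs were not run. Of the depth, only the estimate above is known, and a gene listed at 0 may be unread.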

Other observations

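Proteasome, chaperone and tRNA synthetase genes were compared at ZT4 and at night. At ZT4, where both regimes were lit, 22 of 32 proteasome genes, 26 of 34 chaperone and heat shock genes and 26 of 40 tRNA synthetase genes were higher in LL after SD, against 35.2% of all genes; 89.9% of all calls at ZT4 were higher on deposited values and 61.8% after upper-quartile scaling. Over the 3 night times the same lists had 2, 7 and 4 genes higher and 1, 3 and 2 lower, against 10.5% and 13.1% of all genes. At ZT20 alone, 2, 9 and 9 genes were higher, against 14.8% of all genes. The median log2 difference was 0.72, 1.04 and 0.79 at ZT4 and 0.01, 0.10 and -0.05 over the night, against 0.47 and -0.01 for all genes.

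In mitochondrial respiration, 6 of 28 genes were higher over the night and 2 lower, against the same 10.5% and 13.1% of all genes; 3 were higher without SD number 1 or 2 or the ZT20 libraries, and 1 without LL number 5 or the ZT16 libraries. The alternative oxidase ostta11g01500, which passes electrons from ubiquinone to oxygen, had 114.7 to 139 FPKM in LL after SD (median 129) and 57.5 to 114 FPKM in SD (median 73.1), 0.74 ± 0.11 apart (adjusted p = 0.000299 by limma). In vesicle traffic 1 of 46 genes was higher and 7 lower, near that 13.1%, and without SD number 3 there were 16 lower. ostta07g01660, a SNARE-associated Golgi protein, had 121 and 118 FPKM in LL after SD against 375, 463 and 327 FPKM in SD at ZT20, and fell by 1.68 there (adjusted p = 1.4e-05 by limma).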
